A study of Caenorhabditis elegans with 12 samples.

Results

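The genes described here are the 2 metallothionein genes of Caenorhabditis elegans, mtl-1 and mtl-2, and the cdr family (cadmium-responsive genes). They were taken by name. Of the 9 names listed, 8 were found among the 46245 genes of the expression table, namely mtl-1, mtl-2, cdr-1, cdr-2, cdr-3, cdr-4, cdr-6 and cdr-7. No gene of the table carried the name cdr-5. That name has been used elsewhere for hrg-2, but neither the table nor the annotation used here pairs the names, so hrg-2 was not counted and its values are given apart. All 8 genes passed the limit of a mean of 1 FPKM (fragments corrected for transcript length and for the total that mapped) that left 13337 genes for comparison.

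The study asked how worms respond to mitochondrial stress when the histone deacetylase HDA-1 or the homeodomain protein DVE-1 is targeted by RNA interference (RNAi). Stress came from RNAi against atp-2, a gene for a subunit of mitochondrial ATP synthase. mRNA was sequenced from whole worms. The 6 groups were hda-1+atp-2 RNAi, hda-1 RNAi, dve-1+atp-2 RNAi, dve-1 RNAi, L4440+atp-2 RNAi and L4440 RNAi, where L4440 is the empty feeding vector. All groups were glp-4(bn2) worms, whose temperature-sensitive mutation limits the germ line, kept at 20 °C and taken on day 1 of adulthood. The strain is as the labels give it, while the study's account of its sequencing refers to wild-type worms. Per the labels, bacteria with the atp-2 clone were seeded 30 h after the start on the first clone, and the methods of the study also give another timing. Each group had 2 libraries, but the deposited table holds 1 combined value per group. No difference below could therefore be held against a spread between replicates, no test was possible, and all values describe these 6 columns.

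Metallothioneins are small, cysteine-rich proteins that bind metals such as zinc and cadmium and buffer them in the cell. In worms mtl-2 is known as a gene of the intestine that metals induce strongly, while mtl-1 also has constitutive expression in the pharynx and is a target of the FOXO transcription factor DAF-16. CDR-1 is a membrane protein of intestinal lysosomes that protects against cadmium, and the other cdr genes encode related proteins. Despite the family name, cadmium is not the only agent that acts on these genes, and cdr-4 is known to respond to several kinds of stress.

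Several facts of the whole table bear on these genes. The columns summed to 917209 to 980796 FPKM, and 1 FPKM on 1 kb of exon stood for an estimated 16.1 to 18.8 fragments. The RNAi targets were read first. The hda-1 signal was 811 FPKM in hda-1+atp-2 RNAi and 1207 FPKM in hda-1 RNAi, against 21.0 FPKM in L4440+atp-2 RNAi and 18.8 FPKM in L4440 RNAi. The signal of the targeted gene was thus high and not low in both columns whose label names hda-1, written below as the hda-1-labelled columns, and a knockdown could not be read from it. In wild-type worms, the study also compared hda-1 mRNA under hda-1 and control RNAi by quantitative PCR. It marked that difference as significant. With atp-2 RNAi, the atp-2 level was 554 FPKM against 861 FPKM in the hda-1-labelled columns, 423 FPKM against 1090.1 FPKM in dve-1 RNAi and 598 FPKM against 1094 FPKM in L4440. The dve-1 level was 11.1 FPKM in dve-1 RNAi against 25.4 FPKM in L4440 RNAi, and 14.3 FPKM in dve-1+atp-2 RNAi against 19.6 FPKM in L4440+atp-2 RNAi. All 12 intestine markers were above 0 in every column, and their summed level was 7473 FPKM in hda-1+atp-2 RNAi, 8166 FPKM in hda-1 RNAi, 9382 FPKM in dve-1+atp-2 RNAi, 8043 FPKM in dve-1 RNAi, 7670 FPKM in L4440+atp-2 RNAi and 7797 FPKM in L4440 RNAi. The summed level of 8 pharynx markers ranged from 118 to 157 FPKM, also with none at 0. The 17 sperm markers, genes of the major sperm protein, moved with the groups, with sums of 2.07 FPKM in hda-1+atp-2 RNAi, 3.83 FPKM in hda-1 RNAi, 758 FPKM in dve-1+atp-2 RNAi, 950.3 FPKM in dve-1 RNAi, 288 FPKM in L4440+atp-2 RNAi and 227 FPKM in L4440 RNAi. Their part in the results below was not tested. In whole worms, fewer cells of a type and less RNA per cell cannot be told apart.

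All 8 genes lie on chromosome V (assembly WBcel235, which is ce11), are protein-coding and overlap no other annotated gene. mtl-1 (WBGene00003473) is at positions 6691371 to 6691863 and mtl-2 (WBGene00003474) at 14018270 to 14018673, both on the reverse strand. Their exons span 373 and 347 nt, short for an FPKM estimate, and how the length correction affected them was not tested. cdr-1 (WBGene00000412, 15921309 to 15922820, forward strand) stands alone. The other 5 cdr genes form a cluster with hrg-2 (a heme-responsive gene of the same neighbourhood), described further below. Reads mapping to more than 1 place were dropped by the authors, which can lower the values of near-identical copies, and this was not tested.

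The 2 metallothionein genes differed in opposite directions in the hda-1-labelled columns, where mtl-1 was lower and mtl-2 higher than in L4440. The mtl-1 level was 95.9 FPKM in hda-1+atp-2 RNAi, 354 FPKM in hda-1 RNAi, 703 FPKM in dve-1+atp-2 RNAi, 1529 FPKM in dve-1 RNAi, 1078 FPKM in L4440+atp-2 RNAi and 1296 FPKM in L4440 RNAi. Both hda-1-labelled columns were therefore the lowest, and the highest column was 15.9 times the lowest. The mtl-2 level was 1338 FPKM in hda-1+atp-2 RNAi, 2585 FPKM in hda-1 RNAi, 146 FPKM in dve-1+atp-2 RNAi, 297 FPKM in dve-1 RNAi, 473 FPKM in L4440+atp-2 RNAi and 954 FPKM in L4440 RNAi. Here the hda-1-labelled columns were the highest and the dve-1 columns the lowest, with a 17.7-fold range.

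Within a column, the level of mtl-2 divided by that of mtl-1 does not depend on the scaling of columns against each other. This ratio was 13.9 in hda-1+atp-2 RNAi and 7.29 in hda-1 RNAi. It was 0.208 in dve-1+atp-2 RNAi and 0.194 in dve-1 RNAi, against 0.438 in L4440+atp-2 RNAi and 0.736 in L4440 RNAi. mtl-2 thus exceeded mtl-1 only in the hda-1-labelled columns, and mtl-1 exceeded mtl-2 in the other 4. The summed level of both genes varied less than either alone, at 1433 FPKM in hda-1+atp-2 RNAi, 2939 FPKM in hda-1 RNAi, 849 FPKM in dve-1+atp-2 RNAi, 1826 FPKM in dve-1 RNAi, 1551 FPKM in L4440+atp-2 RNAi and 2249.7 FPKM in L4440 RNAi.

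**Figure D1:**
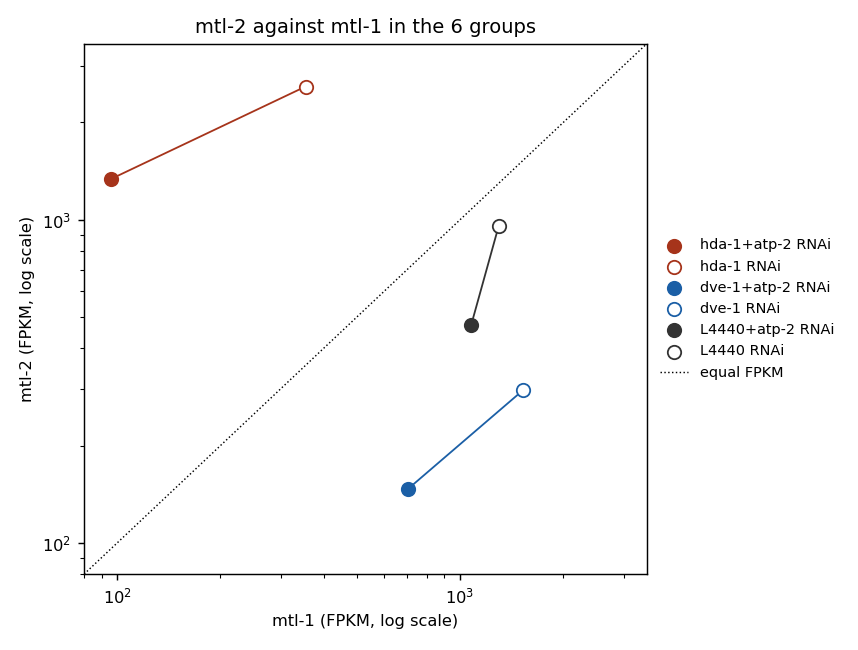
Level of mtl-2 against that of mtl-1 in the 6 groups, both in FPKM on log axes, with 1 point per group, filled with atp-2 RNAi and open without it, and a line joining each such pair. Both hda-1-labelled points lie above the dotted line of equal levels (mtl-2 over mtl-1 of 13.9 and 7.29) and the other 4 lie below it.

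The cdr genes differed widely in level. cdr-4 was at 275 FPKM in hda-1+atp-2 RNAi, 209 FPKM in hda-1 RNAi, 624 FPKM in dve-1+atp-2 RNAi, 467 FPKM in dve-1 RNAi, 951 FPKM in L4440+atp-2 RNAi and 157 FPKM in L4440 RNAi. Its lowest and highest columns were the L4440 pair. The study itself had picked out cdr-4, and pgp-1 and cua-1 named further below, among other genes for follow-up by quantitative PCR. It reported that hda-1 or dve-1 RNAi suppressed their induction under stress. They were picked from these sequencing results, so their directions here are not independent evidence. cdr-2 was at 149 FPKM in hda-1+atp-2 RNAi, 84.6 FPKM in hda-1 RNAi, 384 FPKM in dve-1+atp-2 RNAi, 235 FPKM in dve-1 RNAi, 624 FPKM in L4440+atp-2 RNAi and 205 FPKM in L4440 RNAi. In all 3 backgrounds the column with atp-2 RNAi was the higher one for cdr-2 and for cdr-4. cdr-6 was at 63.7 FPKM in hda-1+atp-2 RNAi, 72.7 FPKM in hda-1 RNAi, 118 FPKM in dve-1+atp-2 RNAi, 161 FPKM in dve-1 RNAi, 229.5 FPKM in L4440+atp-2 RNAi and 272 FPKM in L4440 RNAi, so that the hda-1-labelled columns were the lowest and the L4440 columns the highest.

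cdr-7 had the reverse order of backgrounds, with 31.1 FPKM in hda-1+atp-2 RNAi, 30.2 FPKM in hda-1 RNAi, 25 FPKM in dve-1+atp-2 RNAi, 22.1 FPKM in dve-1 RNAi, 12.7 FPKM in L4440+atp-2 RNAi and 16 FPKM in L4440 RNAi. cdr-1 stayed within a 1.85-fold range, at 8.51 FPKM in hda-1+atp-2 RNAi, 10.3 FPKM in hda-1 RNAi, 8.41 FPKM in dve-1+atp-2 RNAi, 5.57 FPKM in dve-1 RNAi, 6.93 FPKM in L4440+atp-2 RNAi and 6.65 FPKM in L4440 RNAi. cdr-3 was the lowest of the family in 3 of the 6 columns, at 2.72 FPKM in hda-1+atp-2 RNAi, 2.61 FPKM in hda-1 RNAi, 8.87 FPKM in dve-1+atp-2 RNAi, 9.63 FPKM in dve-1 RNAi, 7.08 FPKM in L4440+atp-2 RNAi and 1.89 FPKM in L4440 RNAi. An estimated 25 fragments lay behind its lowest value, the thinnest of the values of the 8 genes.

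**Figure D2:**
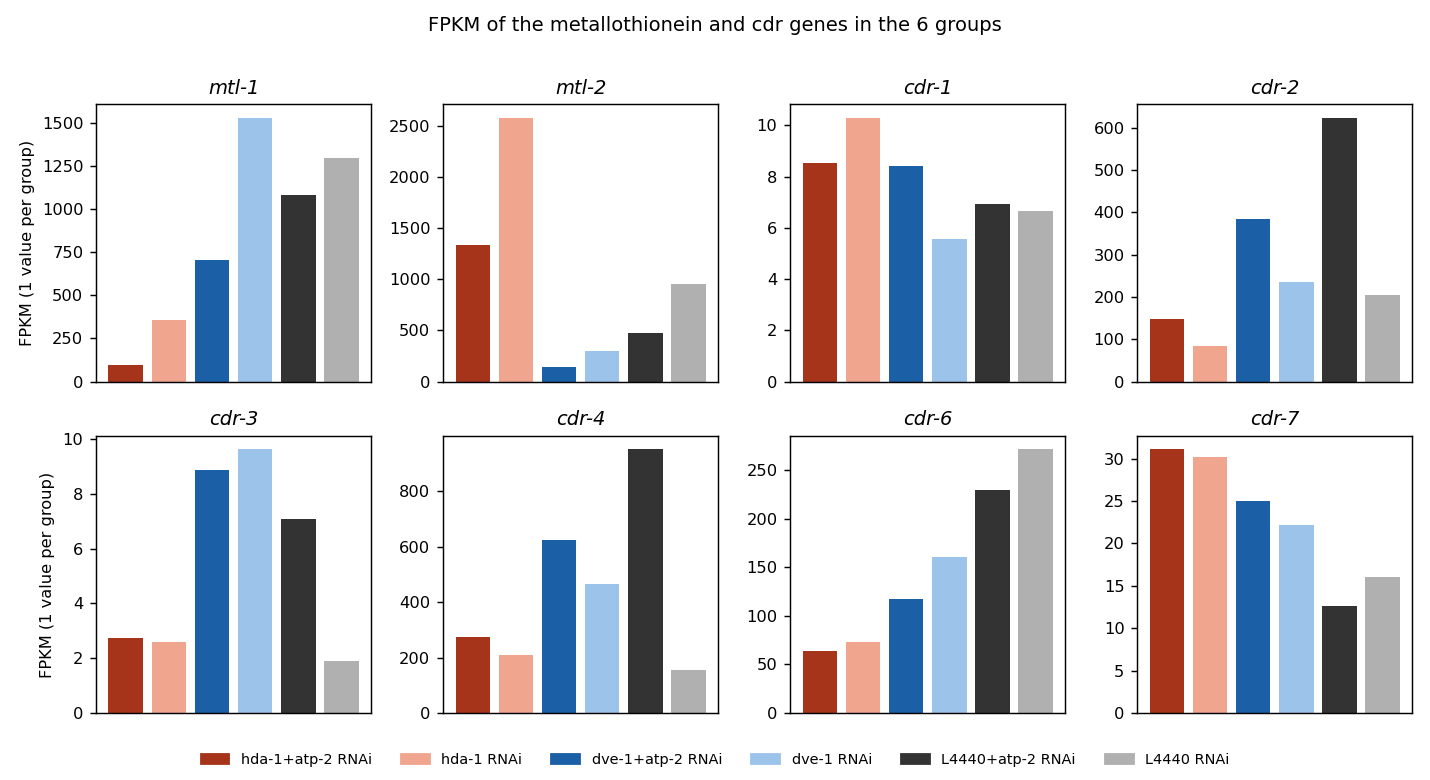
FPKM of the 8 genes, 1 panel each with its own axis starting at 0, and 1 bar per group, which is the single combined value of that group with no error bar. mtl-1 is lowest and mtl-2 highest in the hda-1-labelled columns (95.9 and 354 FPKM for mtl-1, 1338 and 2585 FPKM for mtl-2), and cdr-4 is highest in L4440+atp-2 RNAi at 951 FPKM.

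With atp-2 RNAi in L4440, genes of the cdr family rose while mtl-2 fell. Differences are given as log2 ratios of FPKM + 1, and a gene was called at 2-fold or more with at least 5 FPKM in the higher column. cdr-4 rose by a log2 ratio of 2.59, cdr-2 by 1.60 and cdr-3 by 1.48, so 3 of the 8 genes were called higher where 1.89% of all genes were. The cdr-3 ratio rests on an estimated 105 fragments in L4440+atp-2 RNAi against 25 in L4440 RNAi, and with a pseudocount of 5 it was 0.81, short of the call. mtl-2 fell, with a ratio of -1.01, the only one of the 8 called lower, against 0.652% of all genes. mtl-1 (-0.27), cdr-6 (-0.24), cdr-7 (-0.32) and cdr-1 (0.05) were not called. The summed level of the 6 cdr genes was 1831 FPKM in L4440+atp-2 RNAi against 658 FPKM in L4440 RNAi. cdr-4 was at 4.14 times the level of cdr-6 in L4440+atp-2 RNAi against 0.576 times in L4440 RNAi, a comparison inside each column.

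In the hda-1-labelled columns, none of the 8 genes was called higher with atp-2 RNAi, against 0.742% of all genes. cdr-2 (0.81) and cdr-4 (0.39) had positive ratios short of the call. mtl-1 fell by 1.87 on the log2 scale, to 27.1% of its level without atp-2 RNAi, and was the 1 gene called lower, against 0.645% of all genes. mtl-2 had a ratio of -0.95, just short of the call. The other cdr genes were at -0.25 (cdr-1), -0.19 (cdr-6), 0.04 (cdr-7) and 0.05 (cdr-3).

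In dve-1 RNAi, atp-2 RNAi went with lower levels of both metallothioneins. mtl-1 (-1.12) and mtl-2 (-1.02) were called lower, against 1.56% of all genes. None of the 8 genes was called higher, against 0.997% of all genes, with cdr-2 at 0.71, cdr-1 at 0.52, cdr-4 at 0.42, cdr-7 at 0.17, cdr-3 at -0.11 and cdr-6 at -0.44. mtl-2 with atp-2 RNAi was thus at 51.7%, 49.3% and 49.5% of its level without it in the hda-1-labelled columns, in dve-1 RNAi and in L4440, although these levels ranged from 297 to 2585 FPKM.

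**Figure D3:**
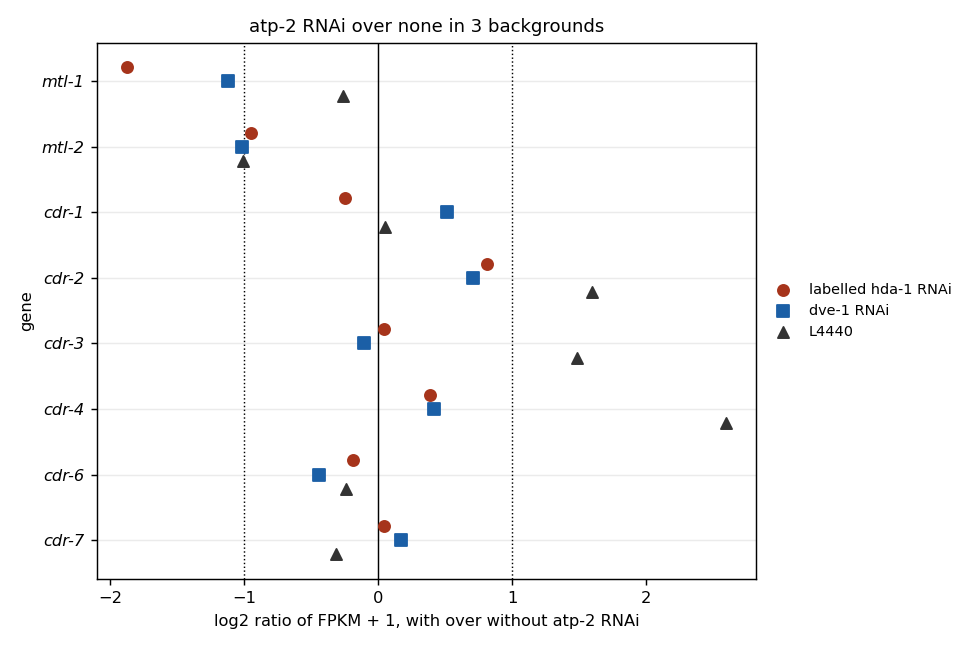
log2 ratio of FPKM + 1 with over without atp-2 RNAi for the 8 genes, with 1 marker per background and dotted lines at 2-fold. The 3 markers of mtl-2 lie together (-0.95, -1.02 and -1.01), while those of cdr-4 lie apart (0.39 and 0.42 against 2.59 in L4440).

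Subtracting the atp-2 ratio in L4440 from that in another background gives the difference between responses. In the hda-1-labelled columns this difference was -2.2 for cdr-4, -1.61 for mtl-1 and -1.44 for cdr-3, so 3 of 8 genes were lower by 1 or more, against 2.35% of all genes, and none was higher by 1 or more, against 1.2%. In dve-1 RNAi it was -2.18 for cdr-4 and -1.59 for cdr-3, so 2 of 8 were lower by 1 or more, against 2.77%, and none was higher, against 1.14%. cdr-2 had differences of -0.79 and -0.89, and mtl-1 in dve-1 RNAi one of -0.86. For mtl-2 they were 0.06 and -0.00. Both sets of differences use the same L4440 columns and are not independent, and neither could be tested. The backgrounds also differed from L4440 in their levels without atp-2 RNAi.

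Without atp-2 RNAi, dve-1 RNAi went with a higher level of cdr-4 and cdr-3 and a lower level of mtl-2 than L4440. cdr-3 (1.88) and cdr-4 (1.57) were the 2 of 8 genes called higher, against 7.08% of all genes, and mtl-2 (-1.68) was the 1 called lower, against 2.23%. cdr-4 in dve-1 RNAi was 2.98 times its level in L4440 RNAi before any atp-2 RNAi. mtl-1 was at 0.24, cdr-2 at 0.19, cdr-7 at 0.44, cdr-1 at -0.22 and cdr-6 at -0.75. Where both columns had atp-2 RNAi, mtl-2 again was the 1 gene called lower, with the same ratio of -1.68, against 2.39% of all genes. None was called higher, against 4.81%, with cdr-4 at -0.61, cdr-2 at -0.70, cdr-3 at 0.29, mtl-1 at -0.62, cdr-6 at -0.96 and cdr-7 at 0.92.

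The hda-1-labelled columns differed from L4440 in more of the 8 genes. Without atp-2 RNAi, mtl-2 was the 1 gene called higher (1.44), against 8.77% of all genes. cdr-6 (-1.89), mtl-1 (-1.87) and cdr-2 (-1.27) were the 3 called lower, against 3.25%. cdr-7 (0.87), cdr-1 (0.56), cdr-4 (0.42) and cdr-3 (0.32) were not called. With atp-2 RNAi in both, mtl-2 (1.5) and cdr-7 (1.23) were the 2 called higher, against 8.43% of all genes. mtl-1 (-3.48), cdr-2 (-2.06), cdr-6 (-1.83), cdr-4 (-1.79) and cdr-3 (-1.12) were the 5 called lower, against 4.34%. mtl-1 in hda-1+atp-2 RNAi stood at 8.90% of its level in L4440+atp-2 RNAi. The median of the 8 genes was -1.45 in this comparison beside 0.13 over all genes, and 0.37 beside 0.16 without atp-2 RNAi.

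**Figure D4:**
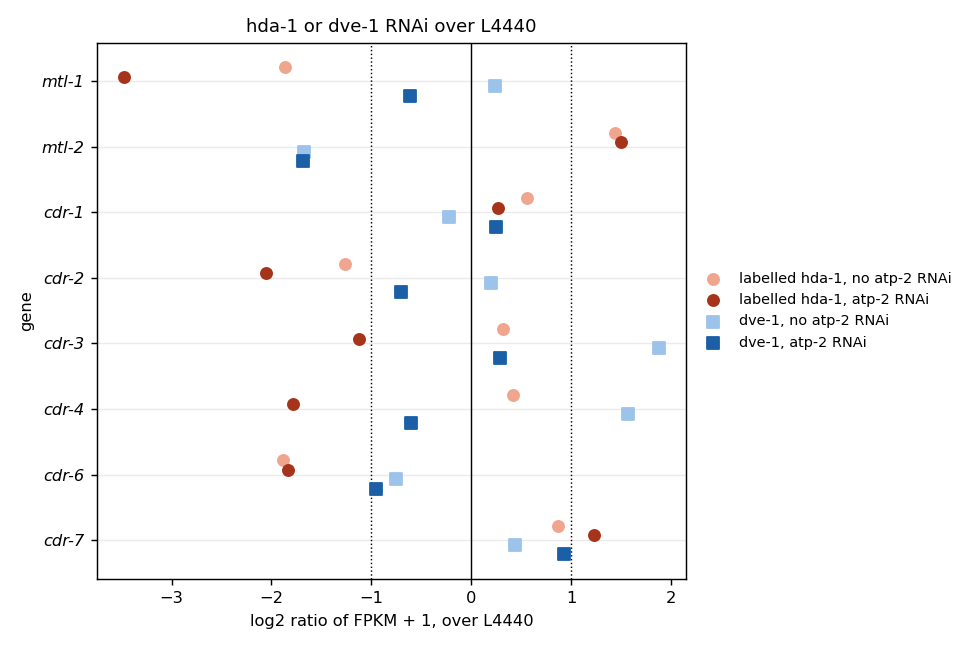
log2 ratio of FPKM + 1 of the hda-1-labelled columns (circles) and of dve-1 RNAi (squares) over L4440 for the 8 genes, in dark with atp-2 RNAi in both columns and in light without, and dotted lines at 2-fold. mtl-2 lies to the right in the hda-1-labelled columns (1.44 and 1.5) and to the left in dve-1 RNAi (-1.68 in both).

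Set against each other, the hda-1-labelled columns and dve-1 RNAi were far apart in the metallothioneins, and intestine markers also differed. Without atp-2 RNAi, mtl-2 was the 1 gene called higher, with a ratio of 3.12, against 6.97% of all genes. Of the 12 intestine markers, 3 were called higher there, act-5 (1.1), ifb-2 (1.01) and pept-1 (1.13), and none lower, with a list median of 0.73 beside -0.04 over all genes. With atp-2 RNAi in both, none of the 12 was called higher and ges-1 was called lower (-1.16), with a median of 0.36 beside 0.02, and the part of these differences in the mtl-2 result was not tested. mtl-1 (-2.11), cdr-3 (-1.56), cdr-2 (-1.46), cdr-4 (-1.15) and cdr-6 (-1.13) were the 5 called lower without atp-2 RNAi, against 6.85%. Where both had atp-2 RNAi, mtl-2 was again the 1 called higher (3.18), against 7%. mtl-1 (-2.86), cdr-3 (-1.41), cdr-2 (-1.36) and cdr-4 (-1.18) were the 4 called lower, against 6.06%. Over the 9 comparisons, which share columns, the median of all genes lay between -0.04 and 0.22.

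The cluster of cdr genes lies at positions 12407366 to 12417377 of chromosome V and spans 10012 bp. In order of position it holds cdr-4 (WBGene00010470), hrg-2, cdr-7 (WBGene00010472), cdr-6 (WBGene00010471), cdr-2 (WBGene00008296) and cdr-3 (WBGene00008297). These are 6 protein-coding genes on the reverse strand, with gaps of 365 to 954 bp and no other annotated gene. Neighbours did not move as a block. Those that rose with atp-2 RNAi in L4440, cdr-4, cdr-2 and cdr-3, lay at both ends, and the ratios of cdr-7 (-0.32) and cdr-6 (-0.24) in the middle were negative. hrg-2, which is not one of the 8 genes, was at 1.17 FPKM in hda-1+atp-2 RNAi, 1.25 FPKM in hda-1 RNAi, 11.1 FPKM in dve-1+atp-2 RNAi, 2.36 FPKM in dve-1 RNAi, 1.67 FPKM in L4440+atp-2 RNAi and 2.09 FPKM in L4440 RNAi. It passed 5 FPKM only in dve-1+atp-2 RNAi, where its ratio over dve-1 RNAi was 1.85.

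**Figure D5:**
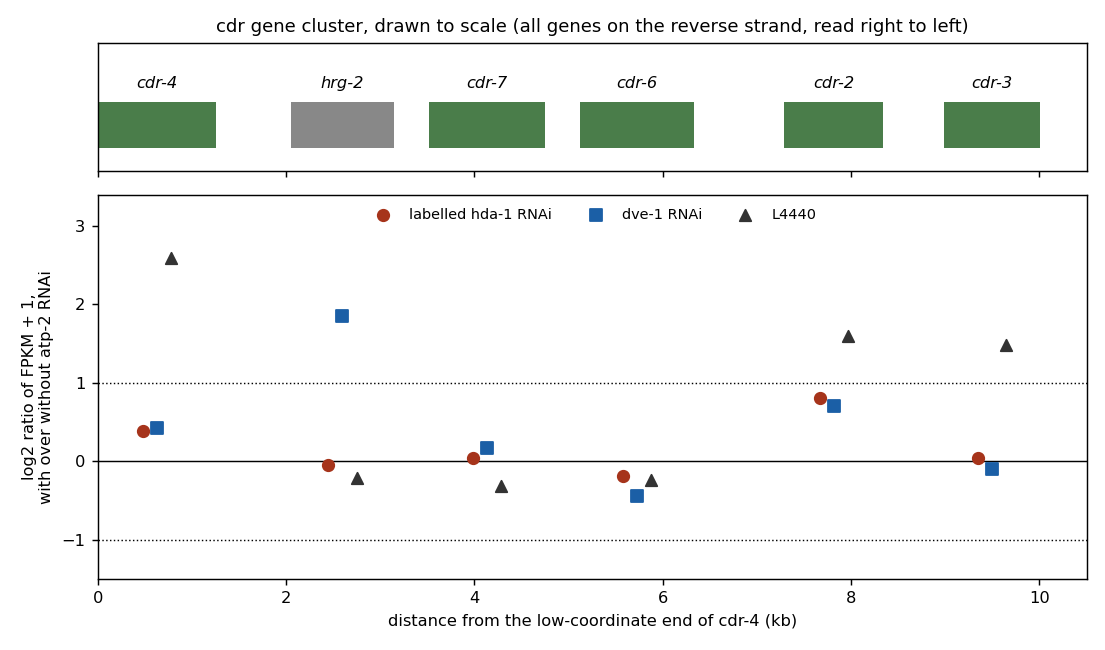
Upper panel, the cdr cluster to scale, as distance in kb from one end, with cdr genes in green and hrg-2 in grey. Lower panel, the log2 ratio of FPKM + 1 with over without atp-2 RNAi at each gene, with 1 marker per background shifted sideways for legibility and dotted lines at 2-fold: in L4440, cdr-4 (2.59), cdr-2 (1.60) and cdr-3 (1.48) lie above the upper line, and in dve-1 RNAi only hrg-2 (1.85) does.

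Patterns over the 6 columns were compared with those of 4656 protein-coding genes that passed the limit on mean FPKM and whose log2 level spanned 1 or more. These are descriptions over 6 points that share the backgrounds and the atp-2 treatment. The genes most like mtl-1 were akt-2 (Pearson r of 0.998), an insulin-pathway kinase gene, C32D5.1 (0.990) and T19E7.6 (0.983). akt-2 was at 18.5 FPKM in hda-1+atp-2 RNAi, 32.1 FPKM in hda-1 RNAi, 40.9 FPKM in dve-1+atp-2 RNAi, 55.2 FPKM in dve-1 RNAi, 50.6 FPKM in L4440+atp-2 RNAi and 50.5 FPKM in L4440 RNAi, and so followed the order of mtl-1 closely over a smaller range. Most like cdr-2 were mtp-18 (0.981), C25F9.14 (0.979) and nhr-114 (0.979), a nuclear hormone receptor gene. Most like cdr-4 were B0252.5 (0.981), the glutathione S-transferase gene gst-15 (0.97) and the catalase gene ctl-3 (0.964). Most like cdr-6 were Y54G2A.49 (0.999), the cytochrome b5 gene cytb-5.1 (0.993) and dhs-20 (0.992), a short-chain dehydrogenase gene.

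Among the 8 genes themselves, cdr-4 had r of 0.872 with cdr-3 and 0.834 with cdr-2, and mtl-1 had 0.867 with cdr-6. Genes outside the 8 were closer in each case. Of 4656 genes ranked by likeness to cdr-4, cdr-3 was at rank 42 and cdr-2 at rank 72. For mtl-1, cdr-6 was at rank 189. cdr-6 and cdr-7 ran opposite, with r of -0.93. mtl-1 and mtl-2 had r of -0.53.

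Other genes of metal handling were read from lists of zinc transporters, cadmium and thiol defence, and iron and copper handling. Of 18 zinc transporters, all measured, atp-2 RNAi in L4440 went with no call higher, against 1.89% of all genes, or lower, against 0.652%. cdf-2, which encodes a transporter that loads zinc into the storage granules of the intestine, was at 47.2 FPKM in hda-1+atp-2 RNAi, 68.7 FPKM in hda-1 RNAi, 11 FPKM in dve-1+atp-2 RNAi, 23.1 FPKM in dve-1 RNAi, 17 FPKM in L4440+atp-2 RNAi and 29.6 FPKM in L4440 RNAi. Its order of backgrounds, with and without atp-2 RNAi, was that of mtl-2, highest in the hda-1-labelled columns and lowest in dve-1. Its r to mtl-2 was 0.951, at rank 46 of 4656 genes. In dve-1 RNAi over L4440, cdf-2 had ratios of -0.34 without and -0.59 with atp-2 RNAi, where mtl-2 had -1.68 in both. For atp-2 RNAi over none, cdf-2 had ratios of -0.53 in the hda-1-labelled columns, -1.01 in dve-1 RNAi, the only one called, and -0.77 in L4440. Against L4440, cdf-2 was called higher in the hda-1-labelled columns both without (1.19) and with (1.42) atp-2 RNAi. zipt-2.2 and zipt-2.3, members of the ZIP family of zinc importers, had lower levels and were called higher there as well, zipt-2.2 at 1.07 and 1.04 and zipt-2.3 at 1.45 with atp-2 RNAi only. Without atp-2 RNAi, zipt-2.3 had a ratio of 1.11, at 2.36 FPKM in hda-1 RNAi against 0.556 FPKM in L4440 RNAi. That was below the 5 FPKM needed for a call. zipt-2.3 was also the list's 1 call for atp-2 RNAi in the hda-1-labelled columns, at 1.03, against 0.742% of all genes called higher. In all, 2 of the 18 were called higher without atp-2 RNAi, against 8.77% of all genes, and 3 with it, against 8.43%, and none lower. The count without atp-2 RNAi is near the share over all genes. In dve-1 RNAi over L4440, none was called higher, against 7.08% of all genes without atp-2 RNAi and 4.81% with it. None was called lower, against 2.23% and 2.39%.

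Of the 10 genes of cadmium and thiol defence, 8 passed the limit on low levels, and numr-1 and numr-2, which cadmium induces, were at 0 or close to it in all columns. With atp-2 RNAi in L4440, 1 of the 8 was called higher, against 1.89% of all genes. This was hsp-70, a heat shock protein gene, at 102 FPKM in L4440+atp-2 RNAi against 35.7 FPKM in L4440 RNAi. The ABC transporter gene pgp-1 was just short of the call (0.995), at 46.6 FPKM in L4440+atp-2 RNAi against 22.9 FPKM in L4440 RNAi. Its ratio with atp-2 RNAi was 0.25 in the hda-1-labelled columns and 0.13 in dve-1 RNAi. hsp-70 was also called higher in hda-1 RNAi (1.85) and dve-1 RNAi (1.79) than in L4440 RNAi. pcs-1, which encodes the enzyme that makes metal-binding phytochelatins, was at 29.5 FPKM in hda-1 RNAi against 12.5 FPKM in L4440 RNAi. These 2 were the list's only calls in the hda-1-labelled columns over L4440 without atp-2 RNAi. That is 2 of 8 called higher, against 8.77% of all genes. In dve-1 RNAi over L4440 RNAi, hsp-70 was the 1 call of the list, against 7.08% of all genes higher. Where the hda-1-labelled and L4440 columns both had atp-2 RNAi, only pgp-1 was called. It was lower at -1.05, against 4.34% of all genes.

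Of 10 genes of iron and copper handling, 8 passed the limit. The copper chaperone gene cuc-1 was at 488 FPKM in L4440+atp-2 RNAi against 162 FPKM in L4440 RNAi. It was the list's 1 call for atp-2 RNAi in L4440, against 1.89% of all genes called higher. cua-1 had a ratio of 0.69 there, short of the call, and 0.17 in the hda-1-labelled columns and 0.23 in dve-1 RNAi. cuc-1 was lower in hda-1+atp-2 RNAi (-1.32) and in dve-1+atp-2 RNAi (-1.01) than in L4440+atp-2 RNAi. It was the list's 1 call in each, against 4.34% and 2.39% of all genes lower. The ferritin gene ftn-1 fell with atp-2 RNAi in the hda-1-labelled columns (-1.04) and in dve-1 RNAi (-1.61). In each it was the list's 1 call, against 0.645% and 1.56% of all genes lower. Without atp-2 RNAi, ftn-1 was higher in both than in L4440 (1.52 and 1.03). ftn-2, the other ferritin gene, was at 361 FPKM in dve-1 RNAi against 732 FPKM in L4440 RNAi. smf-3, which encodes a divalent metal transporter, was at 1.83 FPKM in dve-1 RNAi against 9.56 FPKM in L4440 RNAi. In dve-1 RNAi over L4440 RNAi, 2 of the 8 were thus called lower, against 2.23% of all genes, and 1 higher, against 7.08%. In hda-1 RNAi over L4440 RNAi, ftn-1 was the 1 call, against 8.77% of all genes higher. Among 7 genes for regulators of metal and stress genes, 1 was called against L4440 or with atp-2 RNAi. This was elt-2, the GATA factor of the intestine, at 16.7 FPKM in dve-1 RNAi against 7.61 FPKM in L4440 RNAi. There 7.08% of all genes were called higher. In hda-1 RNAi over dve-1 RNAi, hizr-1 was the list's 1 call, higher at 1.06, against 6.97% of all genes. Where both had atp-2 RNAi, hizr-1 had a ratio of 0.95, short of the call.

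Since mtl-1 is a known target of DAF-16, other known targets were read beside it. Of 13, 12 passed the limit. In the hda-1-labelled columns against L4440, 3 were called lower without atp-2 RNAi, against 3.25% of all genes, and 5 with it, against 4.34%. None was called higher, against 8.77% and 8.43% of all genes. The mitochondrial superoxide dismutase gene sod-3 was at 29.5 FPKM in hda-1+atp-2 RNAi, 36.2 FPKM in hda-1 RNAi, 195 FPKM in dve-1+atp-2 RNAi, 147 FPKM in dve-1 RNAi, 288 FPKM in L4440+atp-2 RNAi and 103 FPKM in L4440 RNAi. Its hda-1-labelled columns were the lowest, as for mtl-1, but with atp-2 RNAi in L4440 sod-3 rose (1.47) while mtl-1 had a ratio of -0.27. The small heat shock protein genes hsp-12.6 (-2.87) and sip-1 (-2.50) and the linker histone gene hil-1 (-1.66) were also lower in hda-1+atp-2 RNAi than in L4440+atp-2 RNAi. Over the list the median was -0.97 in that comparison beside 0.13 for all genes, and -0.53 beside 0.16 without atp-2 RNAi. In dve-1 RNAi over L4440, 1 of the 12 was called lower without atp-2 RNAi, against 2.23% of all genes, and none with it, against 2.39%.

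Markers of the intestine give the tissue background for mtl-2 and cdr-1. Of 12, none was called with atp-2 RNAi in L4440, against 1.89% of all genes higher and 0.652% lower. In the hda-1-labelled columns none was called either, against 0.742% and 0.645%. In dve-1 RNAi, 1 was called higher, against 0.997%, and none lower, against 1.56%. Against L4440, 0 were called in the hda-1-labelled columns without atp-2 RNAi, where 8.77% of all genes were higher and 3.25% lower. With it, 1 was called lower, against 4.34% of all genes, and none higher, against 8.43%. This was the esterase gene ges-1, at 62.0 FPKM in hda-1+atp-2 RNAi against 157 FPKM in L4440+atp-2 RNAi. The list's median was 0.24 in both of these comparisons. In dve-1 RNAi over L4440 RNAi, 1 was called higher, against 7.08% of all genes, and 1 lower, against 2.23%. The list's median there was -0.23 beside 0.22 over all genes. Where both had atp-2 RNAi, none was called, against 4.81% and 2.39%, with a median of -0.02 beside 0.12. The part of these markers in the lower mtl-2 level of dve-1 RNAi was not tested. Of 8 pharynx markers, 7 passed the limit and none was called against L4440 or with atp-2 RNAi. Over these comparisons, 0.645% to 8.77% of all genes were called in a given direction. In the hda-1-labelled columns over L4440, however, 6 of the 7 had positive ratios, and the list's median was 0.58 without atp-2 RNAi beside 0.16 over all genes, and 0.78 with it beside 0.13. tni-4, a troponin gene and the most abundant of the list, had the negative ratios (-0.72 and -0.64) and carries much of the summed level given above. Over dve-1 RNAi, tni-4 was called lower without atp-2 RNAi (-1.16) and tnc-2, another troponin gene, higher with it (1.06). The part of these markers in the lower mtl-1 level was not tested.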

How the data were processed

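RNA from whole worms was sequenced in 12 libraries, 2 per group. Per the labels and the study's methods, the authors aligned reads to ce11 with TopHat2 2.1.1 and obtained FPKM with Cufflinks. The annotation used and the strandedness are not given in the sources used here. The deposited FPKM are 1 value per gene and group, with both libraries combined, and were used as deposited. The study states that quantitative experiments were repeated independently, without naming these libraries, and no SD, n or test was possible. Positions came from the Ensembl annotation of WBcel235, matched by identifier for 45990 of 46245 genes.

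Genes with a mean FPKM of 1 or more were kept. Ratios are log2 of FPKM + 1, which understates changes of low genes, and a call needed 2-fold and at least 5 FPKM in the higher column. Fragments were estimated from the steps between low FPKM in genes of 1000 to 1500 nt, with counting error as the only error covered. The text names the listed genes, the RNAi targets, called genes of the other lists (at most 4 per list) and the 3 most similar protein-coding genes to mtl-1, cdr-2, cdr-4 and cdr-6. hrg-2, numr-1, numr-2, act-5, ifb-2, tni-4, tnc-2, hizr-1 and cua-1 were named after their values were seen. Members and lists were chosen with earlier results of these data known. Alternatives were pseudocounts of 0.1 and 5, no minimum level, a 3-fold threshold, 2 other scalings and 2 other gene sets for the background. Body wall muscle (8 genes), epidermis (8), neuron (8) and germ line (8) markers had summed levels of 7282 to 8578, 2426 to 4056, 408 to 520.2 and 116 to 210.01 FPKM. Analysis used Python 3.11.15, numpy 2.4.6, pandas 2.3.3, SciPy 1.17.1 and matplotlib 3.10.9.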

Additional observations from a re-analysis of the deposited data

Results flagged for a closer look

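The difference for cdr-3 was picked out because its atp-2 ratio was called in L4440 and lay below 0 in dve-1 RNAi. With atp-2 RNAi, cdr-3 was at 8.87 FPKM against 9.63 FPKM in dve-1 RNAi, a log2 ratio of -0.11 whose sign the counts do not settle (95% interval for counting error alone, without a pseudocount, -0.47 to 0.23), and at 7.08 FPKM against 1.89 FPKM in L4440, a ratio of 1.48. The ratio in dve-1 RNAi minus that in L4440 was -1.59. The difference was not tested, since each group has 1 value, and the lowest of these levels rests on an estimated 25 fragments.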

How the results depend on the processing

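Of 432 ratios recomputed under 6 alternatives, 407 kept their direction and side of the threshold, 22 lost a call, 3 gained one and none reversed. Dropping the minimum level or raising the threshold leaves the ratios themselves as they are, so neither setting could reverse a direction. The 407 include all 72 ratios without a minimum level. At 3-fold, 17 of 72 lost a call. With a pseudocount of 5, 1 gene was called lower for atp-2 RNAi within dve-1 RNAi and 1 had a difference of -1 or lower there, and cdr-3 lost 4 of its 5 calls (0.81 with atp-2 RNAi in L4440, -0.65 in hda-1+atp-2 RNAi over L4440+atp-2 RNAi, and -0.94 and -0.85 in the hda-1-labelled columns over dve-1 RNAi). With median-of-ratios scaling, 2 genes were called lower with atp-2 RNAi in the hda-1-labelled columns, since mtl-2 then reached -1.09. With median-of-ratios and with upper-quartile scaling, 2 were called lower in dve-1+atp-2 RNAi than in L4440+atp-2 RNAi, cdr-6 joining at -1.07 and -1.03. At 3-fold, 0 were called lower for atp-2 RNAi within dve-1 RNAi and in L4440, 0 were called higher in the hda-1-labelled columns than in L4440 without or with atp-2 RNAi, 1 was called higher in dve-1 RNAi than in L4440 RNAi, and 1 was called lower in the hda-1-labelled columns than in dve-1 RNAi both without and with atp-2 RNAi. The mtl-2 ratios with atp-2 RNAi lie near the 2-fold line, and their calls turn on the threshold. The scalings of the differences between responses were added after seeing the data. Without the limit on mean FPKM, 0.190% to 2.54% of all genes were called. No paired analysis was possible because the columns carry no replicate numbers and each group has 1 value, and leaving out a library could not be run for the same reason. Depth limits cdr-3 most.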
